A study of Bos taurus with 27 samples.

Results

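The 10 genes HK1, GPI, PFKL, ALDOA, TPI1, GAPDH, PGK1, ENO1, PKM and LDHA encode enzymes of glycolysis, and their transcripts were measured by RNA sequencing in the colon of 27 male Holstein calves. The members were chosen by symbol and matched to the Ensembl identifiers of the count table. All 10 had a single identifier among the 4044 that the study's gene tables pair with a single symbol. The other identifiers of the 24616 in the count table were not matched to a symbol. All 10 members were among the 13943 genes that passed the filter on low counts. Calves were assigned at random to the time after birth of a first meal of pooled, pasteurized colostrum, which was 0 h in TRT0, 6 h in TRT6 and 12 h in TRT12, and the colon was taken at 51 h of age. Each treatment held 9 calves, of which 4 were born to primiparous heifers (H) and 5 to multiparous cows (C). All calves received the colostrum by tube and, later, the same milk replacer. The treatment of each calf is in its label, and the parity of the dam was taken from the study's sample table. RNA was extracted from ground frozen tissue of a colon segment, and the paper describes no separation of tissue layers. The transcripts of the layers present were therefore read together.

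Glycolysis splits glucose into pyruvate in the cytosol and yields ATP and NADH, and lactate dehydrogenase can then turn pyruvate into lactate and return the NAD+ that the pathway needs. Hexokinase, phosphofructokinase and pyruvate kinase are the controlled steps, and the enzymes between them are mostly abundant and work close to equilibrium. In the colon, epithelial cells draw on glucose as well as on the short-chain fatty acids made by bacteria, and the smooth muscle of the gut wall also makes lactate.

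Levels are given as normalised CPM, that is, a gene's counts scaled to a common library total (CPM) after correction of that total by the TMM factor of edgeR. CPM is not corrected for transcript length, so the level of 1 gene is not ranked here against that of another. At the entry to the pathway, HK1 (ENSBTAG00000012380), which phosphorylates glucose, had 126 ± 21.7 normalised CPM (SD, n = 27). GPI (ENSBTAG00000006396), which turns glucose 6-phosphate into fructose 6-phosphate, had 176 ± 32.5. PFKL (ENSBTAG00000010658), the liver-type phosphofructokinase that commits the sugar to glycolysis, had 87.3 ± 19.8. Each of these genes was present in every calf, and the lowest count behind any member value was 74, for PFKL in a TRT6_H calf.

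In the steps that split the sugar, ALDOA (ENSBTAG00000012927), the aldolase that cuts fructose 1,6-bisphosphate, had 487 ± 100.2 normalised CPM (SD, n = 27). TPI1 (ENSBTAG00000019782), which interconverts the triose phosphates, had 179.7 ± 35.4. The steps that follow yield ATP and NADH. GAPDH (ENSBTAG00000014731), which reduces NAD+, had 337 ± 59.6, and PGK1 (ENSBTAG00000000894), which makes the first ATP, had 164 ± 34.4 normalised CPM. ENO1 (ENSBTAG00000013411), which forms phosphoenolpyruvate, had 365 ± 83.0. PKM (ENSBTAG00000001601), the pyruvate kinase that makes the last ATP, had 402 ± 71.9, and LDHA (ENSBTAG00000008683), which reduces pyruvate to lactate, had 68.2 ± 12.3 normalised CPM. The authors discarded reads that could belong to several genes, so members with near-identical processed copies, as GAPDH is known to have, may be undercounted by an unknown amount.

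The spread between calves was larger than counting error for each member. The coefficient of variation over the 27 calves lay between 17.2% and 22.7%, against 3.24% to 8.61% from counting alone. The 10 members together took between 0.172% and 0.313% of a calf's counts. By group, the summed normalised CPM of the members was 2722 ± 261 (SD, n = 5) in TRT12_C, 2647 ± 414 (n = 4) in TRT6_H, 2455 ± 562 (n = 4) in TRT12_H, 2335 ± 358 (n = 4) in TRT0_H, 2245 ± 509 (n = 5) in TRT6_C and 2005 ± 101 (n = 5) in TRT0_C. Neighbours in this order differed by less than the larger of their SDs. The plot of levels by group gives the single genes. The TRT0_C calves had the smallest SD of the 6 groups for GPI, PFKL, ALDOA, TPI1, GAPDH, ENO1 and PKM.

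**Figure D1:**
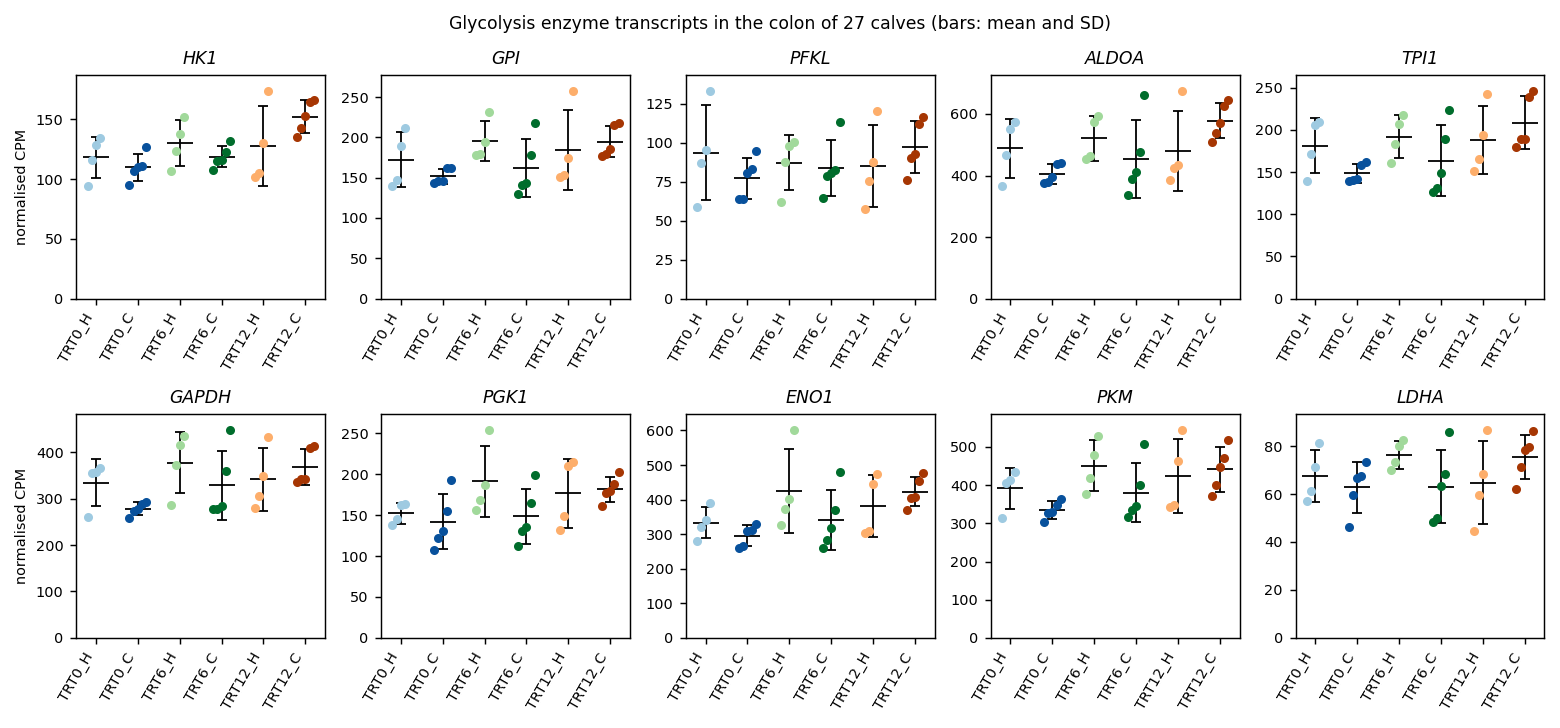
Normalised CPM of the 10 members in each calf (points), by treatment and dam parity, with the mean and SD as bars; each vertical axis starts at 0. The 5 TRT12_C calves lie above the 5 TRT0_C calves for HK1, GPI, ALDOA, TPI1, GAPDH, ENO1 and PKM, while the H groups overlap for each member.

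The totals behind these values lay between 1163791 and 4202593 counts per calf, and the TMM factors between 0.887 and 1.15. These totals were far below the average number of reads per sample that the paper gives, and the reason was not examined. The library labels carry 3 sequencing codes, held by 11, 11 and 5 calves and numbered 1 to 3 here. Codes 1 and 2 begin alike and code 3 begins differently, and the labels do not say whether a code stands for a lane or a run. Library code 1 held no TRT0_C calf and library code 3 held no TRT12_C calf, so these groups met only in library code 2. The tissue label was checked against defining markers. The summed level of 6 epithelial markers was 1672 to 3200 normalised CPM over the calves, and that of 5 smooth muscle markers was 4475 to 11271, so both layers were read in every calf.

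The first question of the design was whether a later first colostrum meal altered the colon transcriptome. Between TRT12 and TRT0, each of the 10 members had a log2 fold change above 0, as had 49.3% of all genes tested, but no member passed the test (adjusted p of 0.10 or less and fold change of 1.2 or more, edgeR quasi-likelihood test with Benjamini-Hochberg adjustment). No gene of the 13943 passed in this contrast, a background of 0%, whereas DESeq2 called 51 genes and edgeR's likelihood ratio test 0. The median log2 fold change of the members was 0.28, with a range of 0.12 to 0.38, against a median of -0.0039 over all genes tested. An unadjusted p under 0.05 was found for 8 of the 10 members, against 9.37% of all genes in either direction and 5.19% with a log2 fold change above 0. PFKL and LDHA were the members without it, each with a log2 fold change of 0.12. Markers of the epithelium had fold changes in the same direction (6 of 6 above 0, median 0.22), and their part in these values was not tested.

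Among the entry enzymes, HK1 was at 94.6, 111 and 134 normalised CPM in the lowest, median and highest TRT0 calf and at 102, 143 and 174 in TRT12. The ranges overlapped, although the TRT12 median lay above the highest TRT0 calf. The log2 fold change of HK1 was 0.31 (SE 0.104, unadjusted p = 0.00503, adjusted p = 0.421). GPI, the next enzyme, had a log2 fold change of 0.24 (SE 0.115), with an unadjusted p of 0.0416 and an edgeR adjusted p of 0.512.

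ENO1 had the highest fold change of the 10 members in this contrast. Its lowest, median and highest values were 260.1, 312 and 390.0 normalised CPM in TRT0 and 302, 408 and 478 in TRT12. The ranges again overlapped, and the median TRT12 calf was above every TRT0 calf. The log2 fold change was 0.38 (SE 0.130, unadjusted p = 0.00657, adjusted p = 0.421). Under DESeq2, used as an alternative, ENO1 passed with a log2 fold change of 0.38 and an adjusted p of 0.0907, and it was the only member that did. Over all alternatives its adjusted p lay between 0.0907 and 0.684.

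Of the other members, TPI1 had a log2 fold change of 0.30 (SE 0.121) with an unadjusted p of 0.0190, and PGK1 had 0.29 (SE 0.127) with 0.0291. ALDOA had 0.28 (SE 0.132) with an unadjusted p of 0.0439, PKM had 0.27 (SE 0.111) with 0.0193, and GAPDH had 0.24 (SE 0.113) with 0.0417. Their adjusted p-values in edgeR lay between 0.460 and 0.517. The members were correlated with each other across calves, so these are not 8 separate observations.

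The count of 8 depended on single calves and on a library code. It was 4 without TRT0 replicate 3, TRT0 replicate 8 or TRT12 replicate 9, and 5 without TRT0 replicate 5, TRT0 replicate 7, TRT12 replicate 2, TRT12 replicate 6 or TRT12 replicate 8. The share of all genes was between 6.89% and 12.7% over the fits that left out a calf. Without the 5 calves of library code 3 the count was 2 (7.6% of all genes). Within library codes, the members with a higher mean log2 level in TRT12 than in TRT0 numbered 8 of 10 in library code 1 (4 against 2 calves, median difference 0.10), 10 of 10 in library code 2 (3 against 5 calves, 0.31) and 10 of 10 in library code 3 (2 against 2 calves, 0.45), where 48.7%, 49.5% and 49.9% of all genes were higher. In library code 3 the 2 TRT0 calves were C and the 2 TRT12 calves were H. Treatment and parity cannot be told apart in that code. In library code 1 the 2 TRT0 calves were H, and 3 of the 4 TRT12 calves were C. With library code as a covariate, 7 of the 10 members had an unadjusted p under 0.05 (9.91% of all genes).

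The differences between TRT12 and TRT0 were then examined within each parity. In the C calves each of the 10 members was at a higher level in TRT12 than in TRT0, by a median log2 fold change of 0.40 and a range of 0.26 to 0.52, against a median of -0.0064 over all genes, of which 49.3% were above 0. No member and no gene of the 13943 passed the test (background 0%). DESeq2 and the likelihood ratio test called 4 and 2 genes, none of them a member. The paper reports RGS2, not a member, as lower in TRT12_C than in TRT0_C at these thresholds. The quasi-likelihood test used here did not call it. The 6 epithelial markers had a median of 0.36 in this contrast, and their part was not tested. An unadjusted p under 0.05 was found for 8 of the 10 members, against 9.86% of all genes in either direction and 5.03% with a log2 fold change above 0. For 7 of the 10 the 5 calves of one group did not overlap with the 5 of the other, against 2.57% of all genes. The plot of fold changes for 12 h against 0 h shows the C and H calves side by side.

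**Figure D2:**
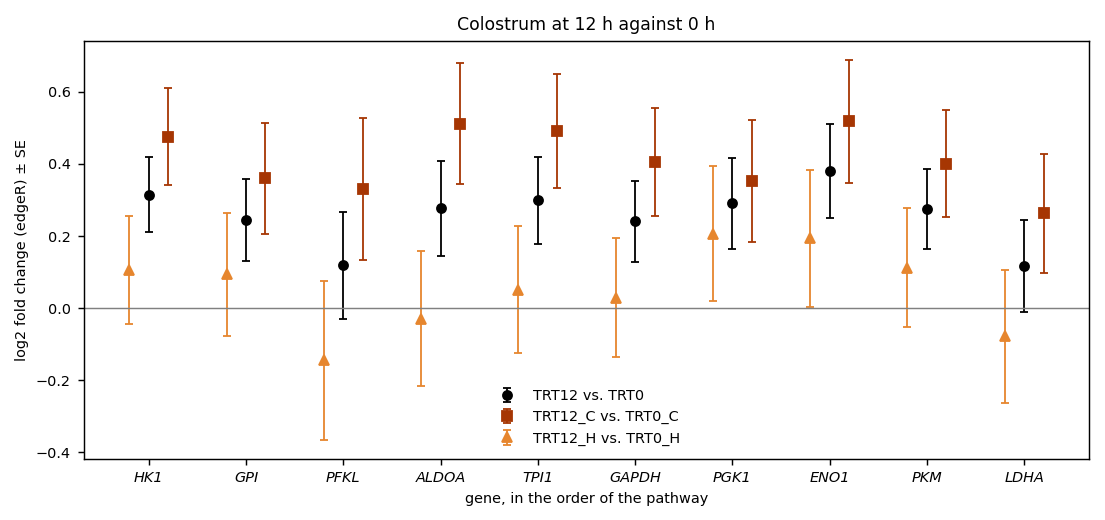
Log2 fold change (edgeR) of each member between TRT12 and TRT0 with its SE, over all calves (black circles), in C calves (brown squares) and in H calves (orange triangles). Each C value lies between 0.26 and 0.52 and above the H value of the same gene, and the H values lie between -0.14 and 0.21.

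HK1 had the lowest unadjusted p of the members in this contrast. Its levels were 95.0, 106, 110.0, 111 and 127 normalised CPM in the 5 TRT0_C calves and 135, 143, 153, 164 and 166 in the 5 TRT12_C calves. Every TRT12_C calf was above every TRT0_C calf. The log2 fold change was 0.48 (SE 0.134, unadjusted p = 0.00136, adjusted p = 0.427).

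GPI was at 143, 145, 146, 162 and 162 normalised CPM in TRT0_C and at 177, 179, 186, 215 and 217 in TRT12_C, and the groups did not overlap. The log2 fold change was 0.36 (SE 0.153, unadjusted p = 0.0256, adjusted p = 0.475). For PFKL the values were 63.7, 63.9, 80.4, 83.1 and 94.8 in TRT0_C and 76.2, 90.1, 92.8, 112 and 117 in TRT12_C. These groups overlapped, since the highest TRT0_C calf was above 3 of the TRT12_C calves, and the log2 fold change of PFKL was 0.33 (SE 0.197, unadjusted p = 0.105, adjusted p = 0.588).

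ALDOA was at 374, 380.1, 394, 439 and 439.8 normalised CPM in TRT0_C and at 509.8, 539, 571, 624.7 and 646 in TRT12_C. All TRT12_C calves were higher, and the log2 fold change was 0.51 (SE 0.168, unadjusted p = 0.00488, adjusted p = 0.427). TPI1, its neighbour in the pathway, was at 139, 141, 142, 158 and 162 in TRT0_C and at 180.1, 189, 189.8, 239 and 246 in TRT12_C. These groups did not overlap either, with 2 of the TRT12_C calves well above the other 3. The log2 fold change of TPI1 was 0.49 (SE 0.157, unadjusted p = 0.00400, adjusted p = 0.427).

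In the energy-yielding steps, GAPDH was at 258, 274, 279, 289 and 293 normalised CPM in TRT0_C and at 336, 342, 343, 409 and 413 in TRT12_C. The 5 TRT0_C calves were close together and all below the TRT12_C calves, with a log2 fold change of 0.41 (SE 0.149, unadjusted p = 0.0108, adjusted p = 0.440). PGK1 was at 107, 123, 131, 155 and 193 in TRT0_C and at 161, 177, 179, 187 and 203 in TRT12_C. A single TRT0_C calf was above 4 of the TRT12_C calves, and the log2 fold change was 0.35 (SE 0.169, unadjusted p = 0.0453, adjusted p = 0.499).

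ENO1 was at 260.1, 267, 308, 312 and 329 normalised CPM in TRT0_C and at 370.4, 405, 408, 454 and 478 in TRT12_C, without overlap. It had the highest fold change of the members, at 0.52 (SE 0.171, unadjusted p = 0.00502, adjusted p = 0.427). PKM was at 304, 328, 329, 349 and 363 in TRT0_C and at 371, 399.7, 447, 472 and 519 in TRT12_C. The highest TRT0_C calf and the lowest TRT12_C calf were close to each other but did not cross, and the log2 fold change was 0.40 (SE 0.148, unadjusted p = 0.0116, adjusted p = 0.440).

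LDHA, which acts after pyruvate, was at 46.2, 59.7, 66.6, 67.6 and 73.5 normalised CPM in TRT0_C and at 62.1, 71.3, 78.3, 79.7 and 86.3 in TRT12_C. The groups overlapped. Its log2 fold change was 0.26 (SE 0.165, unadjusted p = 0.122, adjusted p = 0.608), the smallest of the 10.

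Only library code 2 held calves of both groups, 3 of TRT0_C and 2 of TRT12_C. There, the TRT12_C calves were above the TRT0_C calves for each of the 10 members, as for 20.1% of all genes. HK1 averaged 159 normalised CPM in TRT12_C and 109 in TRT0_C, ENO1 465.98 and 278, and LDHA 78.8 and 57.8. With library code as a covariate all 10 members had an unadjusted p under 0.05 (13.2% of all genes), and without the 5 calves of library code 3 there were 9 (11.9% of all genes), with 0 members passing the adjusted test in both.

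In the H calves the contrast rested on 4 animals in each group. Between TRT12_H and TRT0_H, 7 of the 10 members had a log2 fold change above 0 (50.6% of all genes), with a median of 0.07 and a range of -0.14 to 0.21. No member had an unadjusted p under 0.05 (3.56% of all genes) and none passed the test. HK1 was at 94.6, 116, 128 and 134 normalised CPM in the 4 TRT0_H calves and at 102, 105, 131 and 174 in the 4 TRT12_H calves. The TRT12_H group held 2 calves at low levels and the highest HK1 value of the 27 calves, and the log2 fold change was 0.11 (SE 0.150). ENO1 was at 280.3, 322, 342 and 390.0 in TRT0_H and at 302, 308, 444 and 475 in TRT12_H, where 2 calves were low and 2 were high, with a log2 fold change of 0.19 (SE 0.190). ALDOA was at 364, 465, 551 and 575 in TRT0_H and at 387, 423, 434 and 674 in TRT12_H, and its log2 fold change was -0.03 (SE 0.187).

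Whether the response to delay differed by parity was tested directly. The treatment by parity interaction was not passed by any member, with edgeR adjusted p-values of 0.999 and a lowest unadjusted p of 0.0834, for ALDOA. Across all genes 1 passed (0.00717%). The difference between C and H calves in TRT12 against TRT0 alone, a test added after the data were seen, was above 0 for each of the 10 members (49.5% of all genes), with a median of 0.36 on the log2 scale and a range of 0.15 to 0.54. Markers of 4 cell types were above 0 in the same difference, with medians of 0.36 for 6 of 6 epithelial, 0.54 for 5 of 5 smooth muscle, 0.55 for 4 of 4 fibroblast and 0.46 for 2 of 2 endothelial markers, whereas the leukocyte markers had -0.57. Their part was not tested. ALDOA had the largest, 0.54 (SE 0.251, unadjusted p = 0.0398, adjusted p = 0.999), and it was the only member with an unadjusted p under 0.05 (3.72% of all genes). The count at an unadjusted p under 0.05 in the interaction test was 0 with all calves (2.67% of all genes), 4 with library code as a covariate (5.44%), 8 without the 5 calves of library code 3 (5.19%) and 5 without TRT12 replicate 9 (4.45%), an H calf of library code 3 with the highest HK1, GPI, ALDOA, PKM and LDHA levels among the 27 calves. None of these fits gave a member that passed the adjusted test.

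Feeding at 6 h was also compared with 0 h. Between TRT6 and TRT0 all 10 members had a log2 fold change above 0 (51.7% of all genes), with a median of 0.13, and no member or gene passed the test (background 0%). Of the markers, 6 of 6 epithelial (median 0.08), 1 of 5 smooth muscle and 0 of 4 fibroblast (median -0.29) were above 0. An unadjusted p under 0.05 was found for 2 of the fibroblast markers, and the part of these lists was not tested. ENO1 was the only member with an unadjusted p under 0.05 (3.13% of all genes). Its lowest, median and highest values were 259, 369 and 600.1 normalised CPM in TRT6, a range that held that of TRT0, and its log2 fold change was 0.27 (SE 0.130, unadjusted p = 0.0444, adjusted p = 0.999992). The fold change of ENO1 lay between 0.17 and 0.33 when each calf was left out in turn. Its unadjusted p was no longer under 0.05 without TRT6 replicate 2, the calf with the highest ENO1 level, 600.1 normalised CPM, nor without TRT6 replicates 1, 5 or 9 or TRT0 replicates 2, 3, 5, 7 or 8. Without TRT6 replicates 3, 4 or 6 the count was 2.

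Between TRT12 and TRT6 all 10 members had a log2 fold change above 0 (49.5% of all genes), with a median of 0.11 and a range of 0.03 to 0.19, and none had an unadjusted p under 0.05 (3.14% of all genes). In C calves alone, TRT12_C against TRT6_C gave 10 of 10 members above 0 (48.3% of all genes) with a median log2 fold change of 0.28. In the same contrast 6 of 6 epithelial markers (median 0.25, 1 with an unadjusted p under 0.05) and 4 of 4 fibroblast markers (median 0.36, 2 with such a p) were above 0, and their part was not tested. HK1, ALDOA and TPI1 had an unadjusted p under 0.05 (6.71% of all genes) with none passing the test. HK1 was at 108, 115, 116, 123 and 132 normalised CPM in TRT6_C, each below all 5 TRT12_C calves. It was the only member without overlap in this contrast (0.904% of all genes), with a log2 fold change of 0.36 (SE 0.134, unadjusted p = 0.0115, adjusted p = 0.738). ALDOA had 0.35 (SE 0.168, unadjusted p = 0.0478, adjusted p = 0.740), and TPI1 had 0.36 (SE 0.157, unadjusted p = 0.0316, adjusted p = 0.738).

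The TRT6_C group held a calf apart, TRT6 replicate 5, which had the highest value of its group for each of the 10 members. ALDOA, for example, was at 336, 388, 411, 477 and 663 normalised CPM in the 5 TRT6_C calves. Without that calf the count of members with an unadjusted p under 0.05 in TRT12_C vs. TRT6_C went from 3 to 9 (10.7% of all genes), and it was 1 without TRT6 replicates 4, 6 or 8 or TRT12 replicates 2 or 6 (4.24% to 6.39% of all genes). TRT6_C vs. TRT0_C had 9 of 10 members above 0 (52.4% of all genes) and none with an unadjusted p under 0.05 (1.95% of all genes). In H calves, TRT6_H vs. TRT0_H also had 9 of 10 above 0 (50.4% of all genes), led by ENO1 at 0.35 (SE 0.191) and PGK1 at 0.32 (SE 0.189), and again none with an unadjusted p under 0.05 (3.35% of all genes). TRT12_H vs. TRT6_H had 0 of 10 above 0 (50.7% of all genes), with a median of -0.10 and no unadjusted p under 0.05 (1.8% of all genes). The treatment contrasts share calves, so their directions are not separate results. The map of fold changes over the 13 contrasts gives all values.

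**Figure D3:**
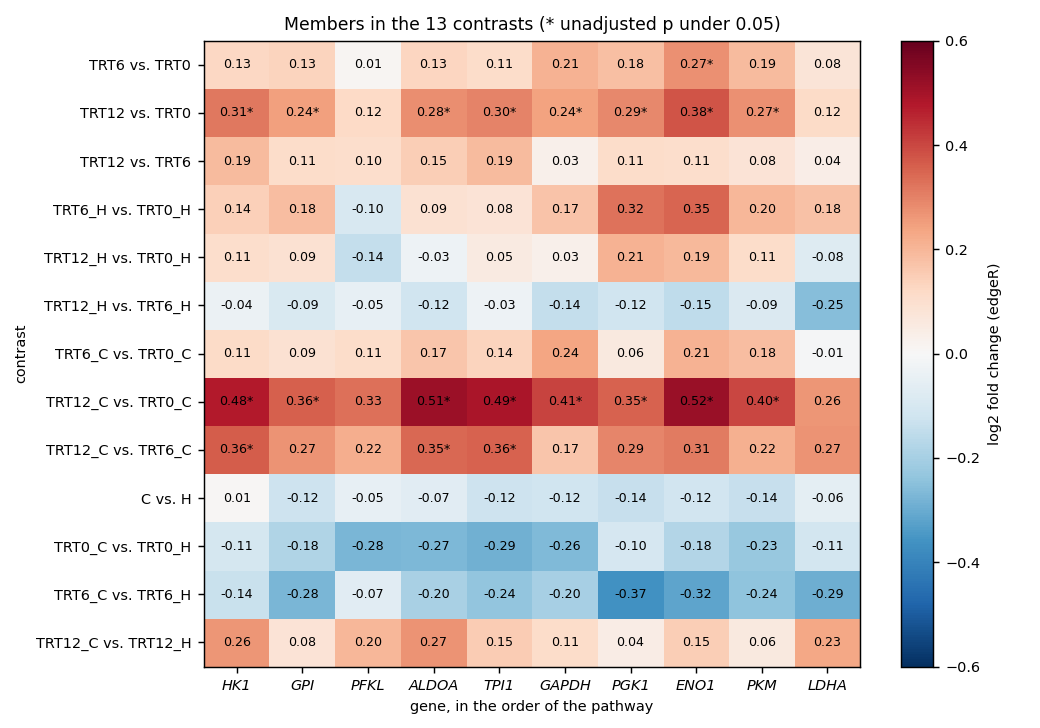
Log2 fold change (edgeR) of each member (columns) in each of the 13 contrasts of the study (rows), with an asterisk where the unadjusted p was under 0.05. The 20 asterisks fall in TRT6 vs. TRT0 (1), TRT12 vs. TRT0 (8), TRT12_C vs. TRT0_C (8) and TRT12_C vs. TRT6_C (3), and no value passed after adjustment.

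By dam parity, C calves had lower levels than H calves for 9 of the 10 members over all treatments (48.9% of all genes were above 0), with HK1 the exception at a log2 fold change of 0.01. The median was -0.12 with a range of -0.14 to 0.01, no member had an unadjusted p under 0.05 (2.52% of all genes), and none passed the test. Within TRT0 and within TRT6 each of the 10 members had a log2 fold change below 0 for C against H, with medians of -0.21 and -0.24 (49.4% and 51% of all genes were above 0). Within TRT12 all 10 were above 0 (48.3% of all genes), with a median of 0.15. None of these 3 contrasts gave a member with an unadjusted p under 0.05 (2.52%, 3.86% and 2.68% of all genes). LDHA, whose contrast of lowest unadjusted p was TRT6_C vs. TRT6_H, was at 48.2, 49.8, 63.3, 68.4 and 85.8 normalised CPM in TRT6_C and at 70.0, 73.2, 80.1 and 82.5 in TRT6_H. The TRT6_C calf with the highest value was again replicate 5, and the log2 fold change was -0.29 (SE 0.178, unadjusted p = 0.110, adjusted p = 0.998). Without that calf, 8 members had an unadjusted p under 0.05 in this contrast (6.07% of all genes). Of the 6 epithelial markers, 5 were below 0 in TRT6_C vs. TRT6_H (median -0.20), and their part was not tested.

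The level of epithelial markers varied with that of the members. The mean log2 normalised CPM of the 6 epithelial markers (EPCAM, CDH1, VIL1, KRT8, KRT18 and KRT19) was 8.30 ± 0.183 (SD, n = 9) in TRT0, 8.40 ± 0.274 in TRT6 and 8.49 ± 0.318 in TRT12. By group it was lowest in TRT0_C (8.24 ± 0.146, n = 5) and highest in TRT12_C (8.59 ± 0.240, n = 5), and it was 8.51 ± 0.170 in TRT6_H (n = 4). The remaining groups were at 8.36 ± 0.225 in TRT0_H (n = 4), 8.31 ± 0.325 in TRT6_C (n = 5) and 8.37 ± 0.398 in TRT12_H (n = 4), so C calves were below H calves in TRT0 and TRT6 and above them in TRT12, as for the members. Their summed level was 1723 to 2204 normalised CPM in TRT0_C and 1859 to 2875 in TRT12_C. All 6 markers had a log2 fold change above 0 in TRT12 vs. TRT0 (median 0.22) and in TRT12_C vs. TRT0_C (median 0.36). None passed the test, and CDH1 and VIL1 had an unadjusted p under 0.05 in both contrasts. Their part in the differences of the members was not tested. In bulk tissue, fewer cells of a type and less RNA per cell cannot be told apart.

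The mean log2 level of 5 smooth muscle markers (MYH11, ACTA2, DES, TAGLN and CNN1) was 10.2 in both TRT0 and TRT12. It was 10.1 ± 0.332 in TRT0_C and 10.2 ± 0.250 in TRT12_C (SD, n = 5), against 10.4 ± 0.221 in TRT0_H and 10.1 ± 0.227 in TRT12_H (SD, n = 4). Of these 5 markers, 1 was above 0 in TRT12 vs. TRT0 and 4 in TRT12_C vs. TRT0_C, with no unadjusted p under 0.05. The median log2 fold change of 4 fibroblast markers was -0.17 in TRT12 vs. TRT0 and 0.12 in TRT12_C vs. TRT0_C. In TRT12_H vs. TRT0_H all 4 (COL1A1, COL3A1, DCN and LUM) were below 0, from -0.64 to -0.41, each with an unadjusted p under 0.05 and none passing the test. There, 0 of 5 smooth muscle markers (median -0.36) and 0 of 2 endothelial markers (median -0.37) were above 0. Each of these 2 lists had 1 marker with an unadjusted p under 0.05. Of the epithelial markers 4 of 6 were above 0, and of the leukocyte markers 2 of 2. For the 2 leukocyte markers matched by name, PTPRC and CD74, the medians were -0.02 in TRT12 vs. TRT0 and -0.28 in TRT12_C vs. TRT0_C. For the 2 endothelial markers, PECAM1 and VWF, they were -0.12 and 0.08. No erythroid marker of the list of 4 was matched by name. The part of these lists in the members' differences was not tested.

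The members varied together from calf to calf. All 45 pairs of members had a Pearson's r above 0 across the 27 calves, on log2(normalised CPM + 0.5), with a median of 0.755 and a range of 0.347 to 0.945. After Benjamini-Hochberg adjustment over the 45 pairs, 44 had a p under 0.05 by Pearson's r and 45 by Spearman's rho in a two-sided permutation test with 100000 permutations. The p was 1e-05, the smallest these permutations can give, for 20 pairs. Over all 97196653 pairs of tested genes the median r was -0.002, and 0.103% of them were at or above the median of the member pairs. How many of all pairs would have such a p was not computed. The median of the member pairs was 0.752 without the 2 calves farthest from the median of the gene on the x axis, 0.765 within the 11 calves of library code 1 and 0.881 within the 11 calves of library code 2, and library code 3 held too few calves.

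**Figure D4:**
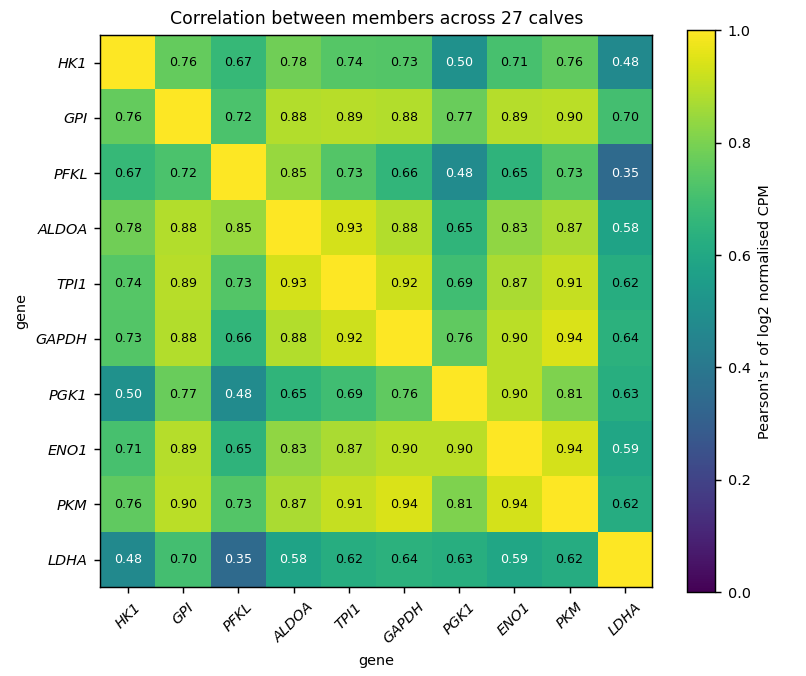
Pearson's r of log2 normalised CPM between each pair of members across the 27 calves. GPI, ALDOA, TPI1, GAPDH, ENO1 and PKM form a block with r of 0.83 or more, and the lowest value is 0.35, between PFKL and LDHA.

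The closest pair was GAPDH and PKM, with r = 0.945 and rho = 0.918 (n = 27, permutation p = 1e-05 for each). The adjusted permutation p was 2.25e-05 for r and 2.37e-05 for rho. ENO1 and PKM followed with r = 0.936, and ALDOA and TPI1, consecutive enzymes of the pathway, with r = 0.934. Taken over the other 9 members, the median r was 0.883 for GPI and for GAPDH, 0.873 for TPI1, ENO1 and PKM, and 0.846 for ALDOA. It was lower for HK1 (0.731), PGK1 (0.692), PFKL (0.668) and LDHA (0.619). PFKL and LDHA were the pair with the lowest value, r = 0.347 (permutation p = 0.0775, adjusted p = 0.0775) and rho = 0.419 (permutation p = 0.0316). PGK1 was closest to ENO1, with r = 0.897. PFKL and LDHA also had the lowest counts of the members, between 74 and 292 per calf, and the part of counting error in their lower r was not tested. With values centred within the 6 groups, 42 of the 45 pairs had an adjusted p under 0.05. Those permutations ran over all 27 calves and did not allow for the group means removed, so the count may be too high. It describes shared variation among calves of the same treatment and parity.

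The members also followed the epithelial marker level. Each of the 10 had an r above 0 with the mean log2 level of the 6 epithelial markers and an adjusted p under 0.05 over the 20 relations computed with both marker levels, by Pearson's r and by Spearman's rho. How many of all tested genes had such a relation was not computed, so this count has no background. The median r was 0.645, from 0.469 for PGK1 to 0.802 for ALDOA. ALDOA had r = 0.802 and rho = 0.784 (n = 27, permutation p = 2e-05 and adjusted p = 0.0002 for each), and r was 0.746 without the 2 calves farthest from the median marker level. The median over members was 0.572 without 2 calves, 0.747 in library code 1 and 0.732 in library code 2. With the smooth muscle marker level all 10 members had an r above 0, but the median was 0.294 and none had an adjusted p under 0.05 by Pearson's r. By Spearman's rho PFKL (0.468) and GAPDH (0.473) did, with adjusted permutation p-values of 0.0249 and 0.0246. The plot of member level against marker levels shows both relations.

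**Figure D5:**
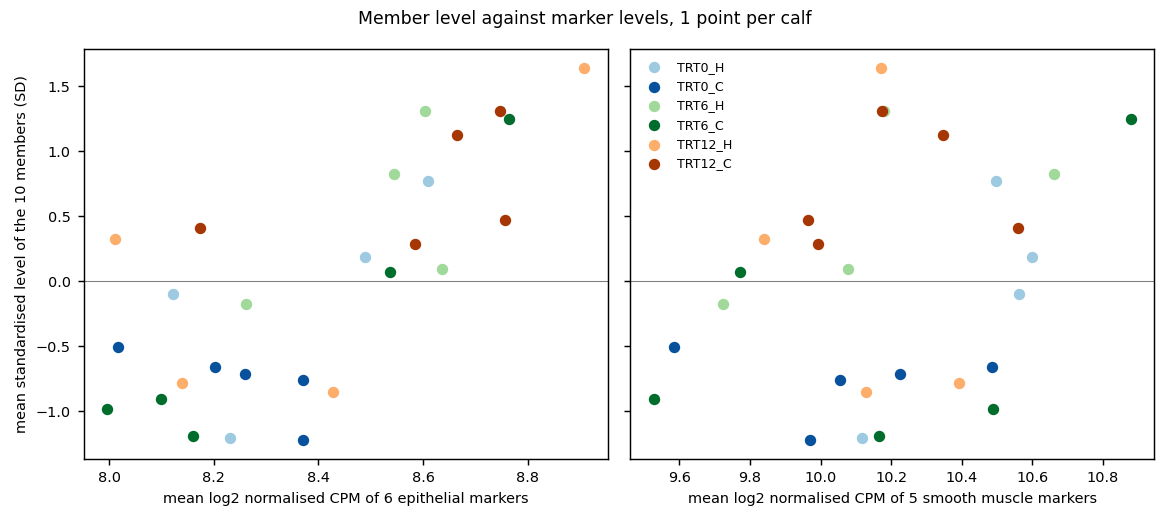
Mean standardised level of the 10 members (in SDs, vertical axis) against the mean log2 normalised CPM of 6 epithelial markers (left) and of 5 smooth muscle markers (right), with 1 point per calf coloured by group. On the left the TRT0_C calves lie at or below the median marker level of the 27 calves and below 0 on the vertical axis. All 5 TRT12_C calves lie above 0, 4 of them at high marker levels and the other at 8.17. On the right the groups are mixed along the horizontal axis.

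The genes outside the lists whose pattern was most like the members were found from Pearson's r with the mean standardised level of the 10 members over the 27 calves, among 3660 genes with a name. P4HB, a protein disulfide isomerase of the endoplasmic reticulum, had r = 0.901. CKMT1B, a mitochondrial creatine kinase, had 0.897, and CFL1, the actin-severing protein cofilin, had 0.888. VCP, an ATPase that extracts proteins for degradation, had 0.878, and WDR1, a cofactor of actin disassembly, had 0.875. The median over 13889 other genes was -0.0159. These values describe the same 27 libraries, and their order among close values has no test.

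Other genes of glucose metabolism were described from lists of isozymes, flux regulators, sugar and lactate transporters, pyruvate entry, gluconeogenesis and hypoxia control. Of their symbols, 9 of 18, 1 of 6, 4 of 9, 6 of 13, 2 of 6 and 3 of 7 were matched by name, and the rest are not analysed here. None of the 25 passed the test in any contrast. In TRT12 vs. TRT0, an unadjusted p under 0.05 was found for 2 of 9 isozymes, 1 of 6 genes of pyruvate entry and 1 of 3 of hypoxia control, all with a log2 fold change above 0, and for none of the flux regulators, transporters or gluconeogenesis genes. The same counts held in TRT12_C vs. TRT0_C. Of all genes, 9.37% had such a p in TRT12 vs. TRT0 and 9.86% in TRT12_C vs. TRT0_C. In the other contrasts an unadjusted p under 0.05 was found for PFKP and MPC1 in TRT6 vs. TRT0 (3.13% of all genes). It was also found for MPC1 in TRT6_H vs. TRT0_H (3.35%), HKDC1 in TRT12_H vs. TRT0_H (3.56%) and PFKP in TRT6_C vs. TRT0_C (1.95%). HK2 and PFKP had such a p in TRT12_C vs. TRT6_C (6.71%). All of these log2 fold changes were above 0. In TRT6_C vs. TRT6_H (3.86%) MPC1 had such a p with a log2 fold change below 0.

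PFKP, the platelet-type phosphofructokinase and so the isozyme of PFKL, was at 45.6, 47.5, 50.2, 50.4 and 58.0 normalised CPM in TRT0_C and at 59.3, 75.1, 94.0, 99.9 and 109 in TRT12_C, with no overlap. Its log2 fold change was 0.79 (SE 0.177, unadjusted p = 0.000109, adjusted p = 0.384) there and 0.58 (SE 0.137, unadjusted p = 0.000209, adjusted p = 0.410) in TRT12 vs. TRT0, against 0.33 and 0.12 for PFKL. MPC1, a subunit of the carrier that brings pyruvate into mitochondria, was at 18.2, 18.7, 21.0, 25.8 and 26.8 in TRT0_C and at 23.0, 29.2, 35.6, 36.0 and 38.4 in TRT12_C. The groups overlapped, and the log2 fold change of MPC1 was 0.53 (SE 0.188, unadjusted p = 0.00878, adjusted p = 0.427).

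PGAM1, the mutase between PGK1 and ENO1 in the pathway, had a log2 fold change of 0.28 (SE 0.130) in TRT12 vs. TRT0 and 0.43 (SE 0.174) in TRT12_C vs. TRT0_C, with unadjusted p-values of 0.0389 and 0.0186. HIF1A, the oxygen-regulated transcription factor, had 0.24 (SE 0.0993) and 0.29 (SE 0.135), with 0.0195 and 0.0417. Their adjusted p-values in edgeR lay between 0.455 and 0.507 over both contrasts. A few isozymes of other steps are given for comparison. In TRT12 vs. TRT0 the log2 fold change was 0.04 (SE 0.0985) for HK2, 0.13 (SE 0.110) for LDHB and 0.07 (SE 0.147) for PKLR. Across the 27 calves, the r with the member level was 0.888 for PGAM1, 0.759 for PFKP and 0.742 for MPC1, against 0.437 for LDHB, 0.336 for HK2 and -0.322 for PKLR.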

How the data were processed

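Colon RNA of 27 calves was sequenced, and the library labels carry 3 sequencing codes. The authors deposited raw read counts for each Ensembl gene and calf, made with TopHat2 2.1.1, SAMtools 1.4 and HTSeq on UMD3.1 according to the submitters' processing notes. They discarded reads that could belong to several genes, and the strand setting is not given in the sources used here. All 27 columns of the table were used, with totals far below the reads per sample that the paper gives. Symbols were taken from the study's gene tables, which pair 4044 of the 24616 identifiers with a single symbol. Coordinates and sequences are not used here.

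The 13943 genes that reached 1 CPM in 5 of 9 calves in every treatment were tested in R 4.3.3 with edgeR 4.0.16, using TMM factors and the quasi-likelihood test over all 27 calves. An additive model of treatment and parity gave the 4 overall contrasts, and a model of the 6 groups gave the 9 contrasts within treatment or parity and the interaction. Calls required a Benjamini-Hochberg adjusted p of 0.10 or less and a fold change of 1.2 or more. An unadjusted p under 0.05 was counted as a description. Dam parity came from the study's sample table. Correlations used log2(normalised CPM + 0.5) and two-sided permutation tests (numpy 2.4.6, scipy 1.17.1). Each calf is a separate animal.

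Members, lists and named genes were chosen with earlier results of these data known. A fold change is given for each member and contrast with an unadjusted p under 0.05 and at the contrast of each member's lowest p. In the other lists, genes with an unadjusted p under 0.01 are named with their tests, as are isozymes of the members' steps, along with the 5 named genes most like the members. Other values are named beside them as context. The alternatives were DESeq2 1.42.0, edgeR's likelihood ratio test, 2 other library scalings, 2 other filters, library code as a covariate, the compared groups only, other scales for the correlations and each calf left out. Those added after the data were seen were treatment without parity, the library code 3 calves left out, values centred within groups and the count at an unadjusted p under all settings. With totals of 1163791 to 4202593 counts per calf, 3 counts stood for 0.714 to 2.58 CPM, far under every member. The values of 1 isozyme are not reported here.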

Additional observations from a re-analysis of the deposited data

Results flagged for a closer look

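Of 30 groups formed by 10 members and 3 treatments, 1 held a calf far from the others by Dixon's test. PFKL in TRT0 was at 133 normalised CPM in replicate 6, an H calf, and the nearest other calf was at 95.3, a gap of 0.511 of the whole range against a critical value of 0.493 for 9 calves. Chance gives such a flag in about 1 of 20 groups.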

How the results depend on the processing

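The 22 member and contrast pairs given with a test in the report were refitted under the alternatives, which gave 801 values. Of these, 800 had the same direction and the same side of the threshold, 0 were reversed and 1 passed, ENO1 in TRT12 vs. TRT0 under DESeq2. The count of members called was 0 in 504 of 505 alternative fits and 1 in that one. The count of members with an unadjusted p under 0.05 in TRT12 vs. TRT0, 8 in the report, was 5 with the 10 highest genes left out of the totals (9.17% of all genes) and 2 without the 5 calves of library code 3 (7.6%), and it lay between 4 and 8 when each calf was left out (6.89% to 12.7% of all genes). In TRT12_C vs. TRT0_C the same count lay between 6 and 10 over all alternatives and between 6 and 8 when each calf was left out (6.25% to 13.5% of all genes). Fewer calves enter the fits without library code 3 or without a calf. The cause of the changes in these counts was not tested for any setting. The correlation counts stayed within 42 to 45 of 45 pairs and 9 to 12 of 20 marker relations. No paired analysis was possible because replicate numbers were given in accession order and tie no calf to a calf of another group. Mean counting error was below the coefficient of variation between calves for each member in each of the 6 groups of treatment and parity, except for LDHA in TRT6_H, with 9.24% against 7.63%.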
